A study of Mus musculus with 3 samples.

Results

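The genes described here encode the respiratory chain of the mitochondrion, as far as they lie in nuclear DNA. They were chosen by name: every gene whose symbol begins with Ndufa, Ndufb, Ndufc, Ndufs, Ndufv, Uqcr, Atp5 or Cox4 to Cox8, together with *Sdha*, *Sdhb*, *Sdhc* and *Sdhd*. The rule uses no measured value, and it found 92 of the 23953 genes in the deposited tables. By name, 38 belong to complex I, 7 are assembly factors of complex I (*Ndufaf1* to *Ndufaf7*), 4 belong to complex II, 8 to complex III, 18 to complex IV and 17 to complex V. The match also takes in 4 genes that are not regular subunits, namely *Ndufa4l2*, *Cox7a2l*, *Atp5s* and *Atp5sl*, which leaves 81 structural subunit genes. *Ndufa4*, named for complex I, is now counted as a subunit of complex IV, and it is kept here under its name.

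The transcriptomes of E14 mouse ESCs, embryonic stem cells grown with LIF, were measured by RNA-seq in 3 conditions with 1 library each. The library labelled WT stands for wild-type cells, although the labels list the tamoxifen-inducible and doxycycline-inducible constructs for this sample too. The library labelled Tam came from *Oct4* DE (−/−) cells, whose distal enhancer of *Oct4* is flanked by loxP sites on both alleles, after 48 h with 4-OH tamoxifen, which activates the recombinase CreERT2. The library labelled DoxTam came from such cells given 4-OH tamoxifen and doxycycline together for 48 h, where doxycycline switches on transgenic mouse *Oct4*. The edited lines were expanded from single clones, so a difference from WT cannot be told apart from a difference between clones. *Pou5f1*, the gene of *Oct4*, was at 664 FPKM in WT, 529 FPKM in Tam and 458 FPKM in DoxTam, with log2 folds against WT of -0.33 and -0.54. The library labelled for the enhancer deletion thus kept most of the WT level, and the one labelled for the added transgene had the lowest level. Both values go against the labels, so the treated libraries are named by their labels only. All 8 pluripotency markers examined were at 1 FPKM or more in WT and 0 of them differed by 1.5-fold, whereas 1 of 7 fibroblast and 1 of 6 primitive endoderm markers reached that level in WT. The 6 trophectoderm markers summed to 19.7 FPKM in WT, 28.4 FPKM in Tam and 23.7 FPKM in DoxTam. Among them *Cdx2* was at 0.639 FPKM, 2.82 FPKM and 0.128 FPKM, and *Gata3* at 0.0980 FPKM, 1.77 FPKM and 0.213 FPKM, so both were highest in Tam. Both reached 1 FPKM only in Tam. *Elf5* and *Krt18* were also highest in Tam. In contrast, *Eomes* (2.91 FPKM, 4.08 FPKM and 5.43 FPKM) and *Krt8* (5.11 FPKM, 5.98 FPKM and 7.25 FPKM) were highest in DoxTam. The part of these markers in the differences described here was not tested, and in bulk RNA fewer cells of a type and less RNA per cell cannot be told apart.

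The respiratory chain passes electrons from NADH (complex I) and succinate (complex II) through complex III to oxygen at complex IV, and the proton gradient that complexes I, III and IV build drives ATP synthesis by complex V. Most subunits are encoded in the nucleus and imported, and some core subunits are encoded by mitochondrial DNA. Naive mouse ESCs are known to use both glycolysis and oxidative phosphorylation. Of 26 genes of mitochondrial DNA looked for by name, 0 were found among the genes compared, so they are not described here.

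Nuclear respiratory chain genes are known to carry sites for NRF1 and for ETS family factors such as GABPA in their promoters. In the RefSeq promoter table (build GRCm38.p6, 250 bases before to 50 bases after each start) 76 of the 92 genes were found. The palindromic NRF1 motif, searched on both strands like the others, was present in the promoters of 19 of these (25%), against 5.19% of all 27025 genes in the table. The ETS motif CCGGAAG was present in 17 (22.4%, against 9.93% of all genes) and the YY1 motif ATGGCGGC in 7 (9.21%, against 2.6%). These counts take each gene once, a gene can hold more than 1 of the motifs, and a match describes the letters, not a bound site. The 150 bases before the start are shown for 5 genes chosen after their values were seen, to set promoters that hold a motif beside promoters that hold none. Capitals mark the NRF1 or ETS motif. *Ndufb4* (chr16:37654369-37654518, minus strand) holds NRF1 motifs, which begin 79 and 22 bases before the start. *Cox6b1* (chr7:30626115-30626264, minus strand) and *Atp5e* (chr2:174464102-174464251, minus strand) hold 1 ETS motif each, which begin 28 and 102 bases before the start. *Cox7b* (chrX:106015550-106015699, plus strand) and *Cox7a1* (chr7:30184021-30184170, plus strand) hold none.
Ndufb4: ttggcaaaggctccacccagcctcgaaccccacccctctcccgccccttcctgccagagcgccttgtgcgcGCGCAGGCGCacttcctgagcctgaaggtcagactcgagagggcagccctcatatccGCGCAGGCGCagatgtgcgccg
Cox6b1: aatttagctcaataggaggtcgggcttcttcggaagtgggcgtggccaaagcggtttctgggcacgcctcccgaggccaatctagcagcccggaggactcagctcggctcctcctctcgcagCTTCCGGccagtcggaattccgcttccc
Atp5e: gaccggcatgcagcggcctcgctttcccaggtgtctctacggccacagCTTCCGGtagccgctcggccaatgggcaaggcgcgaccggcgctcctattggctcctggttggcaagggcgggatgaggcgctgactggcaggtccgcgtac
Cox7b: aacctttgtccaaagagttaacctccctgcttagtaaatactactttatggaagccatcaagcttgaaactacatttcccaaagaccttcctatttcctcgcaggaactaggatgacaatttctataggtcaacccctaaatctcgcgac
Cox7a1: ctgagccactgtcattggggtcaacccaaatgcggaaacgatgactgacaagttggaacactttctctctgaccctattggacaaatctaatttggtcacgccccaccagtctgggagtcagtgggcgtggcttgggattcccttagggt

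By deposited FPKM the respiratory chain genes were among the more abundant transcripts in WT. FPKM are fragments scaled to transcript length and sequencing depth. The members are short, with a median transcript length of 875 nt against 2974.5 nt for the genes at 1 FPKM or more in WT, and the FPKM of short transcripts depends on the fragment length that the software assumes, so the comparison of their levels with those of longer genes is approximate. The median level of the 92 genes was 75.8 FPKM in WT, 69.3 FPKM in Tam and 74.2 FPKM in DoxTam, whereas the median of the 12056 genes at 1 FPKM or more in WT was 10.9 FPKM. Their summed level was 2.62% of all FPKM outside small RNA genes in WT, 2.72% in Tam and 2.63% in DoxTam. Of the 92 genes, 86 were at 1 FPKM or more in all 3 libraries and 77 were at 10 FPKM or more in WT. The most frequent product of level and transcript length among low levels was taken to be 1 fragment. By this estimate the depth was about 10600000 fragments in WT, 5960000 in Tam and 6680000 in DoxTam. There are no replicates, so folds compare single libraries and were not tested.

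**Figure D1:**
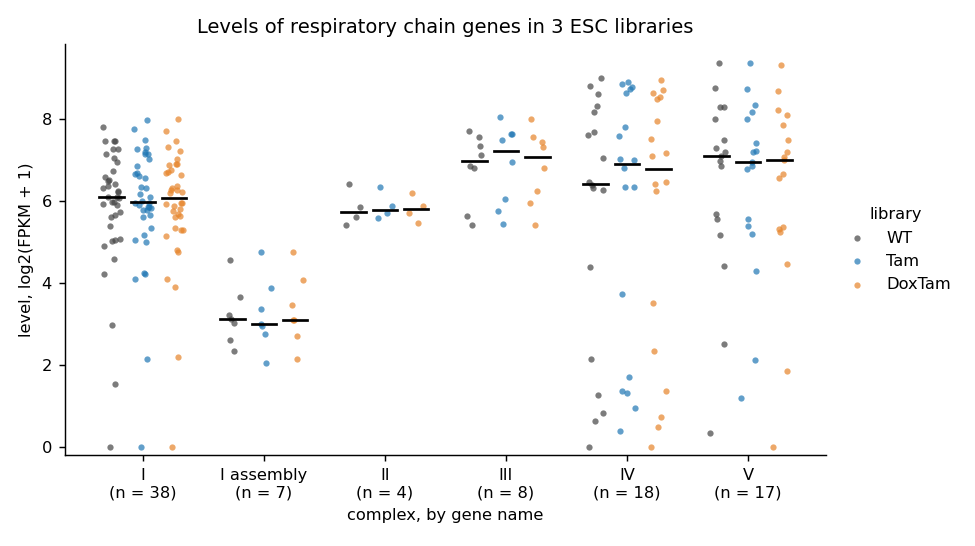
Levels of the 92 genes as log2(FPKM + 1) on the y axis, by complex on the x axis, in the libraries labelled WT (grey), Tam (blue) and DoxTam (orange), where each point is a gene and black bars are medians over genes. Complexes I, II, III and V lie at similar heights in the 3 libraries, assembly factors lie lower, and complexes I, IV and V each hold genes at or near 0.

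Complex V and complex IV held the most abundant members. *Atp5b*, the catalytic β subunit of ATP synthase, was at 657 FPKM in WT, 654 FPKM in Tam and 635 FPKM in DoxTam. *Atp5a1*, the α subunit that forms the F1 head with it, was at 428 FPKM, 426 FPKM and 413 FPKM in the same order. *Cox4i1*, the regulatory subunit 4 of cytochrome c oxidase, was at 509 FPKM, 436 FPKM and 417 FPKM, highest in WT. *Cox6a1*, another nuclear subunit of complex IV, was at 443 FPKM, 460 FPKM and 394 FPKM.

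Complex III had a median of 126 FPKM in WT, and its most abundant members were *Uqcrh*, the hinge protein at cytochrome c1, at 208 FPKM in WT and *Uqcr11* at 188 FPKM. Its lowest members in WT were *Uqcrfs1*, the Rieske iron-sulfur protein, at 41.7 FPKM and *Uqcrc2*, a core protein, at 48.3 FPKM. In complex I *Ndufa7* (221 FPKM in WT) and *Ndufa4* (176 FPKM) were the most abundant. The 7 assembly factors of complex I, which help to build it but do not stay in the finished enzyme, had a median of 7.67 FPKM in WT, between *Ndufaf5* at 4.11 FPKM and *Ndufaf2* at 22.6 FPKM.

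Complex II, the succinate dehydrogenase of the TCA cycle, was the most even group by relative level in WT, between 41.6 FPKM and 84.3 FPKM. *Sdha*, the flavoprotein, was at 56.4 FPKM in WT, 58.2 FPKM in Tam and 58.2 FPKM in DoxTam. *Sdhb*, the iron-sulfur subunit, was at 84.3 FPKM, 80.3 FPKM and 72.8 FPKM. The membrane anchors *Sdhc* (47.9 FPKM, 50.9 FPKM and 43.1 FPKM) and *Sdhd* (41.6 FPKM, 47.0 FPKM and 51.4 FPKM) lay close to each other. None of the 4 genes reached 1.5-fold in any comparison. Of all genes 10.6% did so for Tam against WT, 9.9% for DoxTam against WT and 7.82% for DoxTam against Tam. Nothing particular to complex II is therefore read from 4 genes inside the limit.

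Some members that are regular subunits of the chain were listed at or near 0. *Ndufs5*, a subunit of complex I, was listed at 0.000267 FPKM in WT and at 0 in both treated libraries. *Atp5l*, subunit g of ATP synthase, was at 0.274 FPKM in WT, 1.28 FPKM in Tam and 0 in DoxTam. *Ndufab1*, the mitochondrial acyl carrier protein, was at 1.90 FPKM, 3.44 FPKM and 3.56 FPKM. The coding sequence of *Atp5l* has 14 copies elsewhere in mm9 (at least 90% identity over at least 80% of its length), the closest at 100% identity. That of *Ndufab1* has 2 copies, the closest at 99.8%, and that of *Ndufs5* has 1 copy at 99.4%. In the tables *BC002163* is listed at the same locus as *Ndufs5*, at 23.3 FPKM in WT, 21.7 FPKM in Tam and 16.3 FPKM in DoxTam. The values of *Ndufs5*, *Atp5l* and *Ndufab1* are therefore uncertain, and the part of the copies in the low levels was not tested.

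Copies were common in the whole group. Of 89 members with a protein-coding transcript in the annotation, 32 had at least 1 such copy, and 13 members share their listed locus with another gene, so that 42 members have either. Reads of these 42 genes may be split with a copy or a neighbour.

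In isoform pairs the genes known for most tissues were far above those known for heart and skeletal muscle, lung or testis. *Cox6a2*, the muscle isoform of subunit 6a, was listed at 0 in WT and DoxTam and at 0.321 FPKM in Tam, whereas *Cox6a1* was among the most abundant members in all 3 libraries. *Cox8b* (0.791 FPKM in WT, 0.929 FPKM in Tam and 1.58 FPKM in DoxTam) and *Cox8c*, a testis isoform (0.541 FPKM, 1.51 FPKM and 0.405 FPKM), lay at the level of a few fragments, whereas *Cox8a* was at 289 FPKM, 395 FPKM and 359 FPKM. *Cox7b2* was at 1.42 FPKM, 2.27 FPKM and 0.674 FPKM, against 87.2 FPKM, 130 FPKM and 135 FPKM for *Cox7b*. *Cox4i2*, known from lung and for its response to low oxygen, was at 3.42 FPKM, 1.56 FPKM and 4.06 FPKM.

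There were exceptions to this order. *Cox6b2*, known as the testis isoform of subunit 6b, was at 82.9 FPKM in WT, 112 FPKM in Tam and 84.9 FPKM in DoxTam, beside *Cox6b1* at 317 FPKM, 481 FPKM and 373 FPKM. *Cox7a1*, the heart and muscle isoform of subunit 7a, was at 19.9 FPKM, 12.2 FPKM and 10.5 FPKM, on about 77, 26 and 25 fragments, beside *Cox7a2* at 76.4 FPKM, 79.9 FPKM and 87.2 FPKM. Of 6 muscle markers 1 reached 1 FPKM in WT, and they summed to 2.83 FPKM, 2.02 FPKM and 3.27 FPKM. The related *Cox7a2l*, which links complexes III and IV in supercomplexes, was at 78.9 FPKM, 79.8 FPKM and 75.3 FPKM. The 3 genes for subunit c of ATP synthase, whose mature proteins are the same, differed in level, with *Atp5g3* (135 FPKM, 146 FPKM and 134 FPKM) above *Atp5g1* (50.6 FPKM, 46.5 FPKM and 39.2 FPKM) and *Atp5g2* (46.2 FPKM, 40.7 FPKM and 37.2 FPKM). *Atp5g1* and *Atp5g2* have 4 copies each elsewhere in the genome, so their levels are uncertain.

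**Figure D2:**
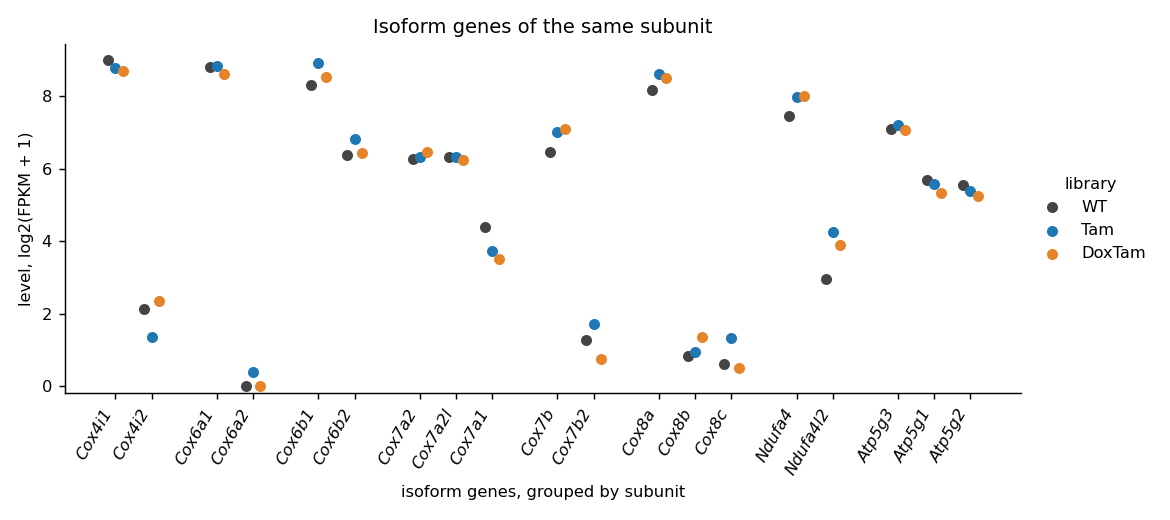
Levels as log2(FPKM + 1) (y axis) of isoform genes grouped by subunit (x axis), in the libraries labelled WT (grey), Tam (blue) and DoxTam (orange), with 1 point per library. *Cox6b2* and *Cox7a1* are measured well above 0, whereas *Cox6a2*, *Cox8b* and *Cox8c* lie near 0.

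The next comparison asks how the chain genes differed between the library labelled Tam and WT. Each fold is the log2 ratio of FPKM + 1, a gene counts as measured if either library has it at 1 FPKM or above, and as higher or lower at 1.5-fold (0.585 on the log2 scale). Of 89 measured members 9 were higher and 3 lower, 13.5% in all, beside 10.6% of the 12705 genes measured (6.98% higher and 3.59% lower). With the trend of the folds over GC content removed by lowess, it was 12.8% of 86 members beside 7.58% of all genes with a GC value. Neither difference in share was tested, and nothing particular to the members is read from them. The median log2 fold of the members was 0.02, equal to that of all genes (0.02), with 48 members above 0 and 41 below. Rescaling the libraries to the same total FPKM, which moved the median of all genes to 0.15, gave 13 higher and 2 lower members. Of the 12686 measured genes with a value in all 3 libraries 1370 were then higher and 272 lower. At 5 FPKM or more 6 members were higher and 2 lower of 82 (9.76%), beside 9.03% of all genes at that level (5.56% higher and 3.47% lower).

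The highest fold belonged to *Ndufa4l2* (mm9, chr10:126951995-126959500), a relative of *Ndufa4* known as a target of hypoxia-inducible factor. It had 6.84 FPKM in WT and 17.9 FPKM in Tam, a log2 fold of 1.27. Its listed locus overlaps that of *Shmt2*, a mitochondrial serine enzyme gene, which had 127 FPKM in WT and 87.5 FPKM in Tam, so the neighbour moved the other way. *Ndufa3* (chr7:3568975-3571763), a small accessory subunit of complex I, was at 105 FPKM and 179 FPKM, a log2 fold of 0.76. *Ndufaf6*, an assembly factor, had a log2 fold of 0.77 at 5.06 FPKM and 9.34 FPKM.

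Other members that were higher lay close to the limit. *Uqcrb* (chr13:67001557-67006286), a ubiquinone-binding protein of complex III, was at 114 FPKM and 178 FPKM, a log2 fold of 0.64. *Cox6b1* had a log2 fold of 0.60 and *Ndufb4* of 0.59 (41.2 FPKM and 62.7 FPKM). *Ndufab1* (0.61), *Cox8c* (0.70) and *Atp5l* (0.84) also counted as higher, but *Cox8c* and *Atp5l* reach the filter only through the Tam library, at about 4 fragments each. *Atp5l*, *Ndufab1*, *Uqcrb* and *Ndufb4* have near-identical copies elsewhere in the genome. *Uqcrb* has 5, the closest at 98.2% identity, and *Ndufb4* has 2, the closest at 100%.

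The members that were lower belong to complexes III and IV. *Uqcrq* (chr11:53242450-53244333), a small subunit of complex III, had 112 FPKM in WT and 65.0 FPKM in Tam, a log2 fold of -0.77. *Cox7a1* had a log2 fold of -0.66 and *Cox4i2* of -0.79, the latter resting on about 27 fragments in WT and 7 in Tam. *Uqcrq* has 1 copy elsewhere in the genome, and *Cox4i2* shares its listed locus with *Bcl2l1*. Of the 8 genes of complex III 6 had folds above 0, beside 6691 of all 12705 genes, with *Uqcrb* and *Uqcrq* at opposite ends. For DoxTam against WT 3 of the 8 were above 0, beside 6158 of 12384 genes.

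Between the library labelled DoxTam and WT, 4 of 88 measured members were higher and 5 lower, 10.2% in all, beside 9.9% of all 12384 genes measured (4.12% higher and 5.78% lower). After removal of the GC trend it was 8.24% of 85 members beside 4.24% of all genes with a GC value. The median log2 fold was 0.0058 for the members and -0.0028 for all genes, with 44 members on each side of 0. Rescaling to the same total, which moved the median of all genes to 0.32, gave 24 higher and 0 lower members, so the split depends on the scaling. Of the 12364 measured genes with a value in all 3 libraries 2727 were then higher and 222 lower. At 5 FPKM or more 3 members were higher and 4 lower of 82 (8.54%), beside 9.79% of all genes (4.25% higher and 5.54% lower). In complex V 11 of 16 measured members were below 0, and its median was -0.12, beside 6226 of all 12384 genes below 0. For Tam against WT 11 of its 17 measured members were below 0, with a median of -0.007, beside 6014 of 12705 genes. The part of GC content in these counts was not tested.

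The higher members were *Ndufa4l2* (14.04 FPKM, a log2 fold of 0.94), *Uqcrb* (189 FPKM, 0.72), *Ndufab1* (0.65) and *Cox7b* (0.63), a small subunit of complex IV. The value of *Shmt2* was 109 FPKM in this library, below its level in WT. *Uqcrb*, *Ndufab1* and *Cox7b* have 5, 2 and 4 copies elsewhere in the genome, and *Ndufa4l2* shares its locus.

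The lower members included *Ndufa2*, an accessory subunit of complex I with a thioredoxin-like fold, at 73.5 FPKM in WT and 38.4 FPKM in DoxTam, a log2 fold of -0.92. Its level in Tam was 49.8 FPKM (-0.55), and it shares its listed locus with *Tmco6*. *Cox7a1* had a log2 fold of -0.87 and *Atp5e*, the ε subunit of the F1 part of ATP synthase, of -0.73 (156 FPKM in WT and 93.8 FPKM in DoxTam). *Ndufv3*, a subunit of the NADH-binding module, was at 154 FPKM and 98.6 FPKM (-0.64), and *Atp5s*, a coupling factor gene, was at 4.69 FPKM and 2.64 FPKM (-0.64). *Uqcrq* was at 75.4 FPKM in this library, with a log2 fold of -0.56 that missed 1.5-fold.

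**Figure D3:**
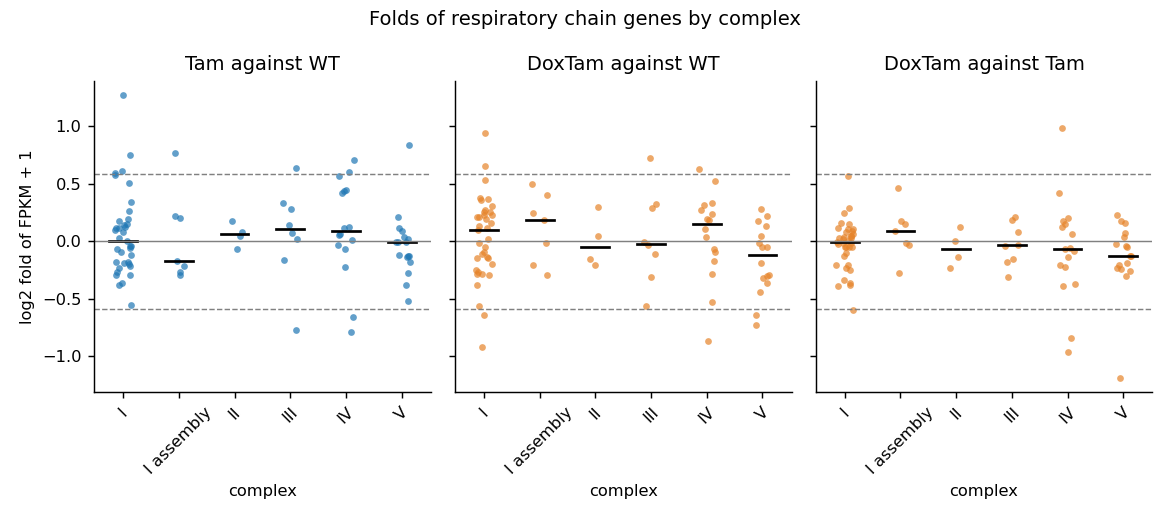
Log2 folds of FPKM + 1 (y axis) of the measured members by complex (x axis) in 3 comparisons, where each point is a gene, black bars are medians over genes and dashed lines mark 1.5-fold. Most points lie between the dashed lines, and the median of every complex lies between -0.17 and 0.19.

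The WT library is shared by these comparisons, so members that passed in both are given side by side only. *Ndufa4l2*, *Uqcrb* and *Ndufab1* were higher in both and *Cox7a1* was lower in both, of 87 members measured in both, and 0 members passed in opposite directions. The matching counts over all genes are not given here, so nothing particular to the members is read from these counts. After removal of the GC trend *Ndufab1* (0.50 and 0.48) and *Uqcrb* (0.46 and 0.44) were inside 1.5-fold in both comparisons, whereas *Ndufa4l2* and *Cox7a1* were past it in both. Over the 3 comparisons 18 of the 92 members reached 1.5-fold at least once, and the matching count over all genes is not given here. Of these 18 members 9 have a copy elsewhere or a shared locus, beside 42 of all 92 members, so no excess is read from them.

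**Figure D4:**
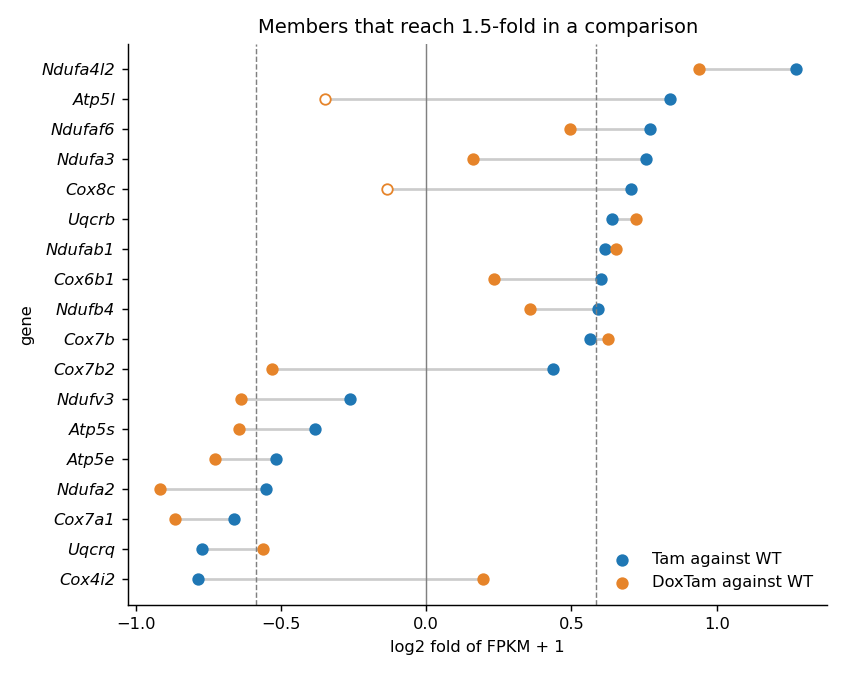
Log2 folds of FPKM + 1 (x axis) against WT of the 18 members (y axis) that reach 1.5-fold in at least 1 comparison, for the libraries labelled Tam (blue) and DoxTam (orange). Open circles are genes under 1 FPKM in both libraries of that comparison, and dashed lines mark 1.5-fold. *Ndufa4l2*, *Uqcrb* and *Ndufab1* lie beyond the right line in both comparisons and *Cox7a1* beyond the left line.

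Between the treated libraries, 1 of 90 measured members was higher in DoxTam than in Tam and 4 were lower, 5.56% in all, beside 7.82% of 12628 genes (2.09% higher and 5.73% lower). After removal of the GC trend it was 5.75% of 87 members beside 6.06% of all genes with a GC value. The median log2 fold was -0.03 for the members and -0.02 for all genes. *Cox4i2* was the higher gene, at 0.98, on about 7 and 20 fragments. *Ndufa3* had a log2 fold of -0.60, and *Cox7b2* (-0.97), *Cox8c* (-0.84) and *Atp5l* (-1.19) were lower on about 7 fragments or fewer in each library. *Cox7b2*, *Cox8c* and *Atp5l* reach the filter only through the Tam library, so if called they could only be lower. Rescaling to the same total gave 3 higher and 3 lower members, beside 761 higher and 517 lower of the 12628 genes. Of the 82 members with 5 FPKM or above in either library, 0 were higher and 1, *Ndufa3*, was lower (1.22%), beside 5.19% of all genes at that level (1.69% higher and 3.51% lower). The next folds in this set were those of *Ndufs3*, a core subunit of complex I (17.8 FPKM in Tam and 26.9 FPKM in DoxTam, 0.57), *Ndufaf4* (0.46), *Cox6b2* (-0.39) and *Ndufb7* (-0.39).

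The folds moved with the GC content of the transcripts. Across the 86 members with a GC value that were measured in the Tam comparison the Spearman correlation of fold and GC content was -0.353, and across all 11274 such genes it was -0.388. For DoxTam it was -0.343 over 85 members and -0.611 over 11028 genes. All points of a comparison share the same libraries, and genes are not independent replicates. Among the 30 members with the lowest GC content (36.7% to 48.7%) the median log2 fold was 0.13 for Tam and 0.21 for DoxTam, next to 0.14 and 0.20 for all genes in this range. Among the 29 members with the highest GC content (54.4% to 60.8%) it was -0.14 and -0.17, next to -0.12 and -0.24. Among the 30 members between these (48.8% to 53.9%) it was 0.0057 and 0.11, next to -0.015 and -0.05. In the lowest and highest ranges the members' medians lay within 0.1 of those of all genes, and in the middle range that for DoxTam lay further above. The part of GC content in single folds was not tested.

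After the GC trend was removed *Cox7b* had log2 folds of 0.38 for Tam and 0.34 for DoxTam, both inside 1.5-fold. The DoxTam calls of *Ndufv3* (-0.43) and *Atp5e* (-0.57) against WT, and that of *Ndufa3* between the treated libraries (-0.56), were also lost. *Ndufa4l2*, at a GC content of 59.1%, came to 1.44 and 1.25, and *Uqcrq* had -0.78 and -0.56. *Ndufa2* had -0.50 and -0.81, *Cox7a1* had -0.60 and -0.72, and *Ndufa3* had 0.78 and 0.21. *Cox8a* (58.9% GC) came to 0.61 and 0.62, past 1.5-fold in both, from 0.45 and 0.32 before. *Atp5s* (38.99% GC) came to -0.65 and -1.01, also past it in both, from -0.38 and -0.64. *Cox7b2* (-0.94) and *Cox8b* (0.72) passed for DoxTam only, on about 8 fragments or fewer in each library. Each of these reaches the filter only through the library where it is higher.

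**Figure D5:**
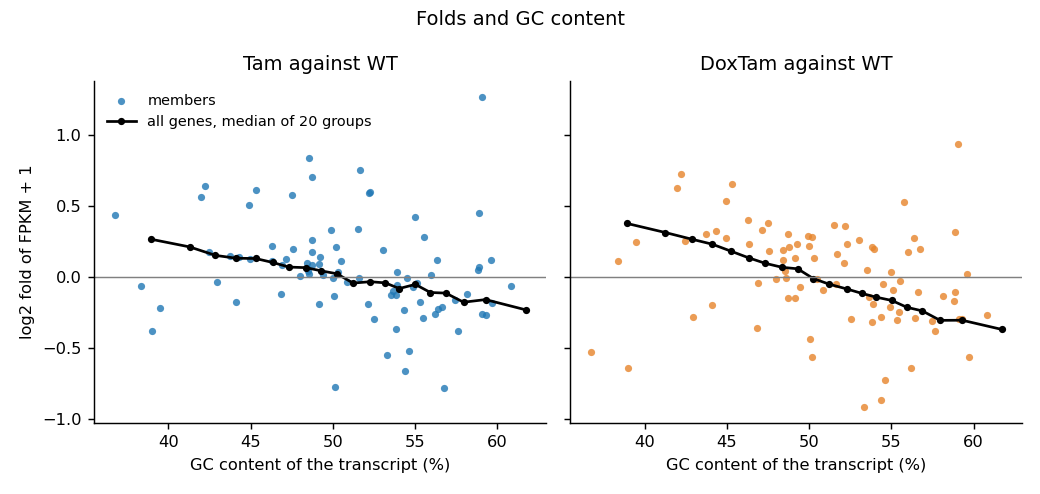
Log2 folds of FPKM + 1 (y axis) of the members against WT by the GC content of their longest protein-coding transcript in percent (x axis), for the libraries labelled Tam (blue) and DoxTam (orange). Black points joined by a line are medians of all measured genes in 20 groups of equal size, and they are higher at low than at high GC content in both comparisons.

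The folds were also set beside transcript length. Across all genes the fold had a Spearman correlation with transcript length of 0.00941 for Tam and 0.0576 for DoxTam against WT, and 0.0571 for DoxTam against Tam. Across the members it was -0.211 (86 genes), -0.0173 (85 genes) and 0.299 (87 genes) in the same order, where the points of a comparison share their libraries and the 3 comparisons share libraries with each other.

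Other genes of the pathway were described from lists set by function. Of 36 measured assembly factors of complexes I to V outside the name rule, 3 were higher and 0 lower for Tam, with a median log2 fold of -0.09, and of 35 measured for DoxTam 2 were higher and 1 lower, with a median of -0.07. These are 8.33% and 8.57% of the list, below the 10.6% and 9.9% of all genes. *Cox20*, a chaperone of complex IV, was at 25.1 FPKM in WT, 39.3 FPKM in Tam and 46.3 FPKM in DoxTam, with log2 folds of 0.63 and 0.86. *Sco2*, a copper chaperone of complex IV, was at 0.504 FPKM, 2.03 FPKM and 2.04 FPKM (1.01 and 1.02), so that it passes the filter only through the treated libraries in which it is counted as higher. *Coa6*, another copper factor, had 0.60 and 0.42. *Cox14* had -0.07 and -0.60.

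Of 22 measured genes for cytochrome c, coenzyme Q synthesis and other parts of the chain, 1 was higher and 0 lower for Tam (median -0.12), and 1 was higher and 1 lower for DoxTam (median -0.0050), which is 4.55% and 9.09% of the list beside 10.6% and 9.9% of all genes. *Usmg5*, a small membrane subunit of ATP synthase that the name rule misses, was at 45.3 FPKM, 68.5 FPKM and 84.5 FPKM, with log2 folds of 0.59 and 0.88, or 0.41 and 0.60 after removal of the GC trend. *Etfb*, the β subunit of the electron transfer flavoprotein, had -0.42 and -0.71, or -0.29 and -0.46 after it. Of 19 TCA cycle genes 0 reached 1.5-fold for Tam (median -0.04) and 1 was lower for DoxTam (median 0.15), *Mdh2*, the mitochondrial malate dehydrogenase, at 224 FPKM, 154 FPKM and 136 FPKM (-0.54 and -0.72, or -0.46 and -0.54 with the GC trend taken out). The share was 5.26% of the list for DoxTam, beside the same 9.9% of all genes.

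Of 18 measured regulators of mitochondrial biogenesis 1 was lower for Tam and 0 higher (median -0.11), and 2 were lower and 1 higher for DoxTam (median 0.05), which is 5.56% and 16.7% of the list beside 10.6% and 9.9% of all genes. *Esrra*, a nuclear receptor that acts with PGC-1 coactivators on chain genes, was at 10.3 FPKM in WT, 5.42 FPKM in Tam and 5.34 FPKM in DoxTam, with log2 folds of -0.82 and -0.84. *Pprc1*, a coactivator of the PGC-1 family, had -0.57 and -0.68, and *Ssbp1*, the single-strand binding protein of mitochondrial DNA, had 0.24 and 0.79. After removal of the GC trend *Esrra* had -0.59 and -0.47, *Pprc1* had -0.48 and -0.48, and *Ssbp1* had 0.04 and 0.48, so that the DoxTam calls of all 3 genes were lost.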

How the data were processed

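The 2 deposited tables each compare 1 treated library with WT, and their levels are FPKM values that the authors made with Cufflinks 2.0.0 after TopHat and Bowtie alignment to mm9, by the submitters' processing notes. TopHat and Bowtie versions and the gene annotation are not given in the sources used here. The authors' fold change, test statistic, p and q columns were not used. WT levels differed by over 1% between the tables for 2 genes and 27 names differed, so the treated libraries were compared over the 23926 genes in common. Each level column was matched to a library by the sample name the table gives for it.

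Folds are log2 ratios of FPKM + 1, without further normalization, in Python 3.11.15 (pandas 2.3.3, statsmodels 0.14.6). GC content and length are those of the longest protein-coding transcript in GENCODE vM1 (the mm9 assembly), with trends removed by lowess (span 0.2), and 3 of the 92 members (*Ndufaf5*, *Ndufaf6* and *Ndufaf7*) have no value. Promoter windows came from RefSeq (GRCm38.p6). Copies were searched with BLAST 2.17.0. Fragment numbers are approximate, since transcript length stood in for effective length. Steps were tested on simulated data. Alternatives were pseudocounts of 0.1 and 5 FPKM, filters of none and 5 FPKM, rescaling, centring, trend removal, a 2-fold limit, structural subunits alone and genes with status OK.

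The members and lists were chosen with earlier results of these data known. Named genes are the 2 highest and 2 lowest WT levels per complex, members at 1.5-fold, the 3 highest and 3 lowest folds per comparison at 5 FPKM or more, isoform groups, complex II, and up to 4 genes per list at 1.5-fold. Locus neighbours, and the genes that gained a call in the GC comparison, were picked after values were seen.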

Additional observations from a re-analysis of the deposited data

How the results depend on the processing

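Counts of members at 1.5-fold are small and moved with most settings, and no called fold changed sign under any setting tried. For Tam against WT (9 higher, 3 lower) there were 4 and 1 with a pseudocount of 5 FPKM, 5 and 5 after removal of the length trend, and 1 and 0 at 2-fold. For DoxTam against WT (4 and 5) there were 24 and 0 when libraries were scaled to equal totals and 0 and 0 at 2-fold. For DoxTam against Tam (1 and 4) there were 3 and 4 with a pseudocount of 0.1 FPKM, and 0 and 0 with a pseudocount of 5 FPKM. Equal totals gave 3 and 3. A filter at 5 FPKM gave 0 and 1, as did the 2-fold limit. There were 2 and 3 after rescaling without small RNA genes, after centring and after removal of the GC or the length trend. Genes with status OK gave 1 and 1. Values over all genes follow in the order Tam, DoxTam and DoxTam against Tam, over 12686, 12364 and 12628 genes. A pseudocount of 5 FPKM gave 296 higher and 167 lower, 176 and 262, and 75 and 194. The 2-fold limit gave 270 and 93, 88 and 129, and 58 and 250. Equal totals gave 1370 and 272, 2727 and 222, and 761 and 517. Equal totals also moved the median log2 fold of the members to 0.16, 0.36 and 0.19, and that of all genes to 0.15, 0.32 and 0.17, in the same order. The shift rests on the small RNA gene *Mir6236*, at 456353 FPKM in WT, 337865 FPKM in Tam and 225659 FPKM in DoxTam.

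Further settings were chosen after seeing the data. Without members that have copies or a shared locus there were 4 higher and 1 lower for Tam, 0 and 4 for DoxTam, and 0 and 3 for DoxTam against Tam. After removal of the GC and then the length trend there were 3 and 6 for Tam, 1 and 6 for DoxTam, and 2 and 4 for DoxTam against Tam. A pseudocount of 5 FPKM took 14 of the 26 folds past 1.5-fold below that limit, and removing the GC trend took 8 of those with a GC value below it. Where no cause is named, the cause was not tested. No paired analysis was possible because each condition has 1 library. A library could not be left out for the same reason.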
